A study of Mus musculus with 6 samples.

Results

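The long terminal 3' exon bins are the last exon pieces, of at least 1000 bases each, of 2900 mouse genes expressed in cultured microglia. The deposited counts are given per exon bin: the annotated exons of a gene are divided at every exon edge into pieces that do not overlap, and each piece is counted separately. A gene entry was used if it held a single gene, at least 5 bins and at least 5000 counts over the 6 libraries, and its last bin in the direction of transcription was kept if it was at least 1000 bases long. Of 48005 entries with 425461 bins, 7872 met the minimums of bins and counts, 2900 of these ended in such a long bin, and 4972 ended in a shorter one. The members were thus chosen by annotation and by counts summed over both groups, and not by the quantity compared below, the share of a gene's counts that fell in its terminal bin. The choice was, however, made with earlier results of these data known.

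The 6 libraries were 3 of control microglia (control A, B and C) and 3 of microglia given extracellular vesicles (EV A, B and C), all labelled with the outbred CD1 strain. The vesicles came from CD1 neural stem cells of the subventricular zone. Neither the control treatment, the dose and duration of the vesicle treatment, nor the age of the animals is described in the labels. The labels do not say that the libraries of a group were separate cultures, so the p-values measure the spread between these libraries, which may be technical. Libraries held 109744701 to 162544804 counts. Of 10 microglial marker genes, 9 were above 1 CPM (a count scaled to the normalised library size) in every library, and the markers summed to 5613 to 7265 CPM in control and 2977 to 3092 CPM in EV libraries. The oligodendrocyte-lineage markers summed to 213 to 440 CPM in control and 30.6 to 43.8 CPM in EV libraries, the neural stem cell markers to 46.6 to 83.3 and 5.96 to 7.95 CPM, and the astrocyte markers to 10.9 to 15.6 and 88.3 to 124 CPM. Endothelial markers summed to 4.68 to 6.04 and 24.6 to 35.1 CPM, fibroblast and pericyte markers to 15.0 to 41.2 and 13.8 to 20.2 CPM, and neuronal markers stayed under 1 CPM, with no marker of any list at 0 in all libraries. Only 1 of 7 astrocyte, 1 of 5 endothelial and 1 of 7 neural stem cell markers were above 1 CPM in every library. The same held for 2 of 8 oligodendrocyte-lineage, 2 of 6 fibroblast and pericyte and 0 of 6 neuronal markers. These sums can thus rest on few genes and need not describe a whole cell type. The part of these differences between groups in the results below was not tested. In bulk RNA, fewer cells of a type and less RNA per cell cannot be told apart.

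A messenger RNA ends where the cleavage and polyadenylation machinery cuts the transcript, a little downstream of a hexamer such as AAUAAA. Many genes carry several such sites. Where the sites lie in the same last exon beyond the coding part, ending at a nearer one gives the same protein from a shorter 3' untranslated region. Such an mRNA lacks any binding sites for microRNAs and RNA-binding proteins in the part left out. Where the terminal bin is a separate exon, the protein need not stay the same. Some terminal bins lie beyond the end of other annotated transcripts of their gene, while others hold the end of every coding transcript. Coding transcripts counted here and below are only those in the basic set of the GENCODE annotation. The second kind made up 1413 of the 2900 genes. A share falls when the bin loses counts, and also when the other bins of the gene gain them. Activation of immune cells is known to be accompanied by changes in the choice of these sites.

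Most of these bins were untranslated sequence. The median length was 2015 bases, with quartiles at 1431 and 2991 bases, 2864 of the 2900 genes were protein coding, and the median share of coding bases in a bin was 0.994%. The far end of 2501 bins coincided with a transcript end in the GENCODE vM21 annotation of GRCm38. In 1449 genes the terminal bin continued an exon, that is, the bin before it ended at the adjoining base. Near end is used here for this boundary between bins, and far end for the end of the terminal bin. Whether transcripts end at the boundary was not tested. The windows of 30 bases below come from the vM21 transcripts on GRCm38 and are shown for genes whose terminal share fell and whose hexamer lay within 50 bases of the near or far end. Each reads 5' to 3' on the transcript strand as DNA, and the capitals mark the hexamer AATAAA or, where that was missing, ATTAAA.
Nudt21 near end, chr8:94019405-94019434, minus strand: aagtttctcATTAAActctgaaaagtctta
Nudt21 far end, chr8:94015496-94015525, minus strand: gttatttcAATAAAaatatttaaaactgaa
Cpsf6 near end, chr10:117349039-117349068, minus strand: tagtgttgtAATAAActgtttatggggctg
Cpsf6 far end, chr10:117344673-117344702, minus strand: tcttgtattgaaAATAAAaacaaagttttg
Hook3 near end, chr8:26031654-26031683, minus strand: tgtacaATTAAAagtgttgtataatagtgt
Hook3 far end, chr8:26021424-26021453, minus strand: gttgtaAATAAAgacttgtataaaaatcca
Hnrnpd near end, chr5:99960598-99960627, minus strand: gcttccattaAATAAAaaaaatgtggactt
Hnrnpd far end, chr5:99955935-99955964, minus strand: ttaacaATTAAActttccagcactcatgca
Tpp1 near end, chr7:105745930-105745959, minus strand: caacaaAATAAAtaggtcattacaaatttt
Tpp1 far end, chr7:105744811-105744840, minus strand: aaattaAATAAAtgactgtttaaaaaaaaa
Trem2 near end, chr17:48352244-48352273, plus strand: tttggacATTAAAcattctccacacaccaa
Trem2 far end, chr17:48354108-48354137, plus strand: atgacaATTAAAagtaaccattttgggtgc
Timp2 far end, chr11:118301069-118301098, minus strand: ctctgtcaatggacAATAAAccatattatc
Igf1 far end, chr10:87937012-87937041, plus strand: aattacATTAAAattaatcatgtttgatta
In the first 6 genes a hexamer lay near the boundary and near the far end. In Hook3 and Tpp1 all coding transcripts of the basic set are annotated to end in the terminal bin, so none of this set ends at the boundary. Transcripts outside that set were not checked. The window of 50 bases at the near end held neither hexamer in Timp2 and Igf1, so for these only the far end is shown.

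The terminal share was lower in the EV libraries for most of these genes. The median share over the 2900 genes was 22.5%, 24.2% and 23.9% in control A, B and C and 20.9%, 20.7% and 21.2% in EV A, B and C. All 3 EV libraries lay below all 3 control libraries, and the means differed by -2.59 percentage points (23.5% ± 0.863 against 20.9% ± 0.232, SD, n = 3 each). An exact 2-sided permutation test gave p = 0.1, the smallest p that 3 against 3 libraries allow. Gene by gene, 2235 shares (77.1%) were lower in EV and 660 were higher, and the median difference was -1.68 points.

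**Figure D1:**
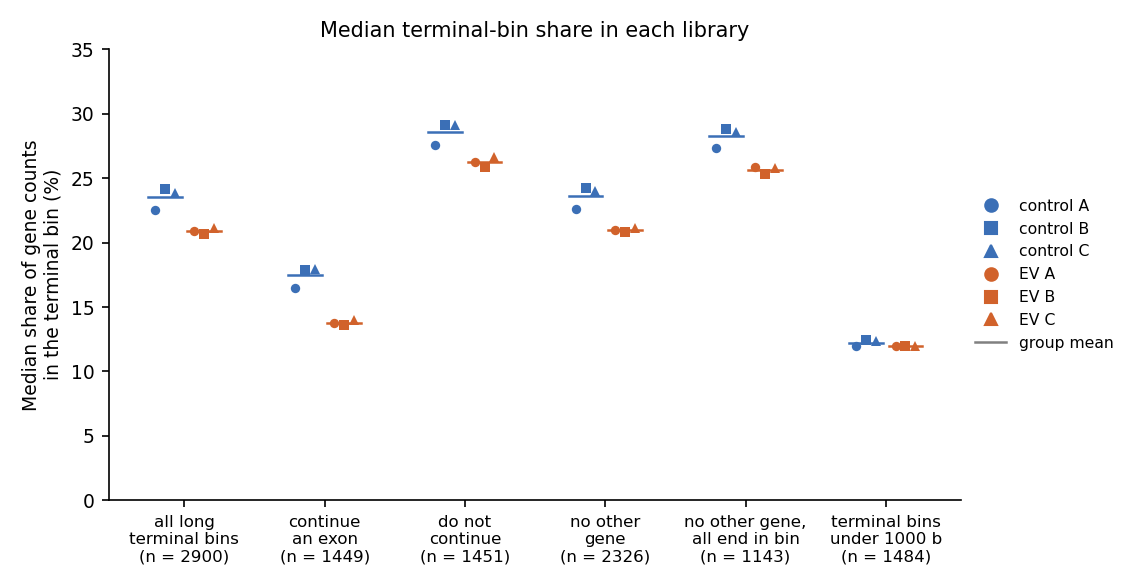
Median share of gene counts in the terminal bin (%), for each library (points) and as the mean of the 3 libraries of a group (lines), for all long terminal bins, for 4 subsets of them and for terminal bins under 1000 bases with a mean share of at least 5%. In each set of long bins the EV libraries lie below the control libraries, by 2.59 points for all 2900 genes, while the shorter bins differ by 0.27 points.

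The difference was larger in long bins than in short ones. Terminal bins under 1000 bases whose mean share was at least 5% (1484 genes) had a median share of 12.2% in control and 11.97% in EV libraries, a difference of -0.27 points (exact permutation p = 0.4). Long bins with the same minimum share (2444 genes) had 27.3% and 24.5%, a difference of -2.75 points. The median of all 2900 long bins minus that of these shorter ones was 10.6, 11.7 and 11.5 points in control A, B and C. It was 8.98, 8.70 and 9.18 points in EV A, B and C. These values did not overlap between groups (difference -2.32 points, exact permutation p = 0.1). Elsewhere along the same genes the libraries overlapped: of the counts outside the terminal bin, a median of 54.998%, 56.6% and 56.4% fell in the 3' part of the remaining exon length in control A, B and C, against 56.0%, 55.5% and 55.3% in EV A, B and C. When the counts of all 2900 genes were pooled, so that the most abundant transcripts weigh most, the terminal bins held 22.5%, 23.7% and 23.3% of the counts in control and 23.2%, 22.8% and 23.4% in EV libraries, and the groups overlapped.

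Among the long bins the difference was larger in longer ones. The median share of bins of 1000 bases up to 1500 was 15.8% in control and 14.3% in EV libraries (825 genes, -1.53 points). Bins of 2000 bases up to 3000 held 26.6% and 23.8% (744 genes, -2.80 points), and those of 3000 bases up to 5000 held 33.4% and 28.5% (532 genes, -4.95 points). In the 190 genes with a terminal bin of at least 5000 bases the medians were 46.5%, 49.2% and 48.8% in control A, B and C and 37.7%, 35.7% and 39.9% in EV A, B and C, a difference of -10.4 points. In that class 170 of the 190 shares (89.5%) were lower in EV, against 70.2% in the shortest class. Across the 2900 genes, which share the same 6 libraries, the Spearman correlation of the share difference with bin length was -0.34. Longer bins also held a larger share in control, so points lost are not on an equal footing between classes.

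**Figure D2:**
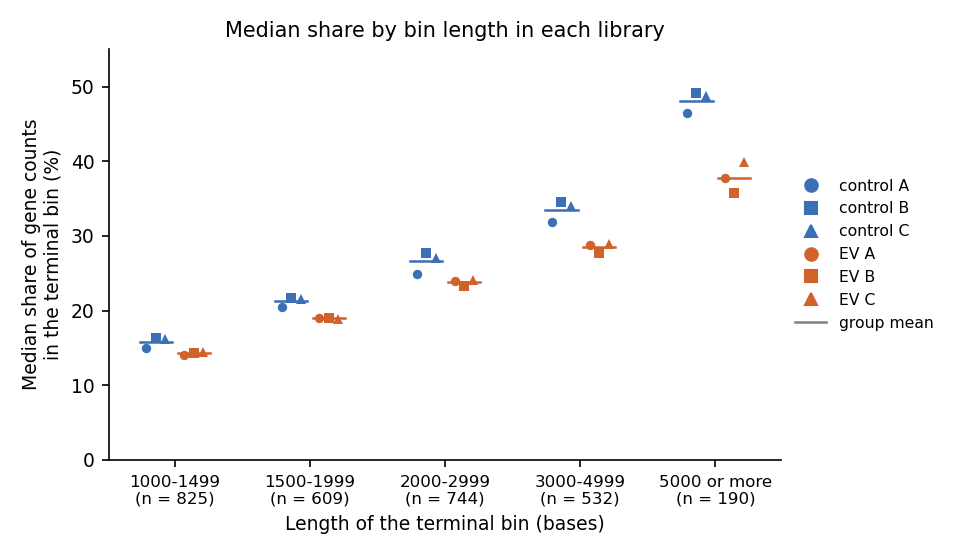
Median share of gene counts in the terminal bin (%) against the length of that bin in bases, for each library (points) and as the mean of each group (lines). The gap between groups widens from 1.53 points in the shortest class to 10.4 points at 5000 bases or more, and no EV library overlaps a control library in any class.

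The usage test compares the log2 fold change of a bin with that of its whole gene, so a negative value means that the bin fell relative to the gene, and the value is compressed for bins that hold much of their gene's counts. It could be run on 2796 of the 2900 genes. By edgeR with Benjamini-Hochberg adjustment over all 196100 bins tested and a threshold of 0.05, terminal usage fell in 434 of these genes and rose in 41. The background was 2.44% of all bins lower and 1.69% higher, against 15.5% and 1.47% of the long terminal bins. Of the 2750 shorter terminal bins tested, with no minimum of share, 6.36% were lower and 3.45% higher. With a mean share of at least 5%, 2.37% of 1479 shorter bins tested were lower and 2.30% higher. For long bins with that minimum it was 11.3% and 0.985% of 2436. Without control A the number of long bins that rose was 27, and 360 fell. The groups did not overlap in share for 1386 genes with lower and 170 with higher values, which is 47.8% and 5.86% of the 2900 genes, against a background of 12.4% and 15.2% of all bins of the genes that met the minimums. Of the 434 falls, 3 overlapped between groups, 108 exceeded 10 points, and 121 were in bins that held under 5% of the gene's counts in control.

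Deeper genes gave more falls. Among the 725 genes with the fewest counts (5000 to 14554 over the 6 libraries) 10.2% of the genes tested fell and 2.18% rose, and among the 725 with the most (64206 or more) 19.2% fell and 0.704% rose. The share was lower in EV for 67.6% of the first set and for 81.1% of the second. The minimum of 5000 counts applied to the sum, and 208 genes had under 500 counts in at least 1 library.

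**Figure D3:**
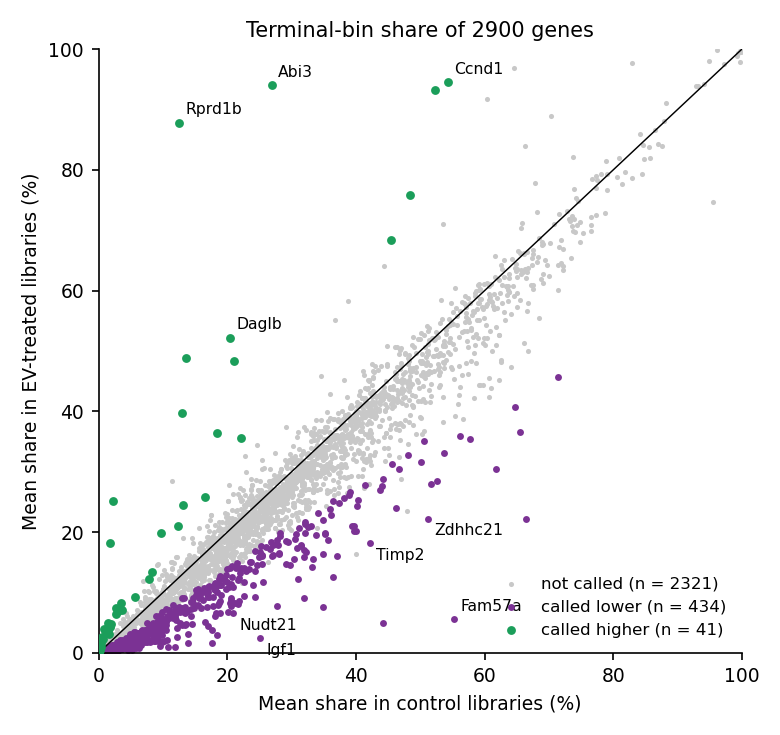
Mean share of gene counts in the terminal bin in the 3 EV libraries (vertical, %) against the 3 control libraries (horizontal, %), 1 point per gene, with the 104 genes not tested in the same grey as those not called. The cloud lies below the line of equality, the 434 genes called lower spread along its lower edge, and the 41 called higher include a few that move far above it, such as Rprd1b from 12.5% to 87.8%.

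More bins were called lower among those that continue an exon, while the median change in share per gene, in points, was similar in both kinds. Of 1381 such genes tested, 354 fell and 24 rose (25.6% fell). Of 1415 genes whose terminal bin was a separate exon, 80 fell and 17 rose (5.65% fell). The median share of the first kind went from 17.5% ± 0.841 to 13.8% ± 0.202 and that of the second from 28.6% ± 0.870 to 26.3% ± 0.401 (SD, n = 3 each), and neither overlapped between groups. The median of the differences per gene was -1.70 points in the first kind and -1.66 points in the second, and 79.0% and 75.2% of the shares were lower. The first kind held a smaller share in control, so points lost are not on an equal footing here either. Of the 434 genes that fell, 82.0% had no coding base in the terminal bin, against 47.2% of all 2900. In 1143 genes with no other gene over the bin and with all coding transcripts annotated to end in it, 103 of 1135 tested fell and edgeR called none higher. At an unadjusted p under 0.05 it gave 194 lower and 4 higher there, and DESeq2 gave 340 lower and 7 higher, limma diffSplice 201 and 1, and limma on log2 odds 147 and 1.

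Hexamers near the boundary were more frequent among the called genes, whether they fell or rose, than among those not called. Both hexamers were searched on the transcript strand only, in the last 50 bases before the boundary of bins that continue an exon. AATAAA was there in 135 of 341 genes that fell (39.6%), in 8 of 22 that rose (36.4%), in 15.7% of 924 genes not called, and in 18.4% of all 2759 terminal bins of at least 1000 bases that continue an exon. ATTAAA without AATAAA added 10.9%, 9.09%, 7.79% and 7.43% in these sets. At the far end, the last 50 bases of the bin held AATAAA in 68.2% of the genes that fell, in 51.2% of those that rose, in 67.6% of those not called and in 61.5% of all 5850 terminal bins of that length with a sequence. The motif TGTA, the DNA form of the UGUA that cleavage factor Im binds, was found in the 100 bases before the boundary in 53.4% of the genes that fell, in 27.3% of those that rose, in 38.9% of those not called and in 38.0% of all. ATTTA, the core of AU-rich elements, was found in the last 1000 bases of 78.9% of the genes that fell, 78.0% of those that rose, 77.7% of those not called and 77.8% of all. A match is a string of letters and not a measured site.

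The levels of the bin and of the rest of the gene were also tested separately. Over all bins tested, 30.6% rose and 30.0% fell by edgeR at the level of the bin. Among the 434 genes with a fall in usage the terminal bin itself fell in 322 and rose in 50. For genes counted without their terminal bin the background was 33.6% rising and 32.8% falling, and the remaining bins of the 434 genes rose in 217 and fell in 102. In 106 the terminal bin fell while the rest rose. Over all 2900 genes 860 terminal bins rose and 1210 fell, or 580 and 1583 when libraries were scaled by their totals alone. The usage values, which compare bins within a gene, gave similar counts under another scaling: 41 rises and 433 falls with RLE scaling.

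The 2 secreted factors among the deepest falls were Timp2, an inhibitor of matrix metalloproteinases, and Igf1, a growth factor made by microglia. The terminal bin of Timp2 (chr11:118301069-118303700, minus strand) held 40.8%, 40.9% and 44.8% of its counts in control A, B and C and 18.6%, 17.0% and 18.8% in EV A, B and C. The groups were far apart, and usage fell by 1.22 ± 0.21 on the log2 scale (SE, edgeR adjusted p = 4.3e-07). The gene as a whole also fell (log2 -2.13), and the bin fell further (log2 -3.35) than the remaining bins (log2 -1.63). The terminal bin of Igf1 (chr10:87931802-87937042, plus strand) held 23.6%, 23.3% and 28.5% in control and 2.79%, 1.53% and 2.97% in EV libraries. Its level went from 119 ± 12.5 to 0.726 ± 0.150 CPM (SD, n = 3 each), while the gene went from 475 ± 5.08 to 31.1 ± 6.24 CPM. The usage of Igf1 changed by -3.42 ± 0.33 (SE, adjusted p = 4.0e-22). Per base, the terminal bin of Igf1 had 0.634, 0.634 and 0.601 times the counts of the adjoining bin in control A, B and C and 0.130, 0.108 and 0.123 times in EV A, B and C.

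Genes of RNA processing and RNA binding were among the falls. Nudt21 encodes the subunit of cleavage factor Im that recognizes UGUA, and Cpsf6 encodes its partner; both are known to favour the far ends of many transcripts. The terminal bin of Nudt21 (chr8:94015496-94019404, minus strand) held 19.5%, 19.3% and 24.0% in control A, B and C and 6.01%, 5.01% and 8.82% in EV A, B and C (usage log2 -1.71 ± 0.22, adjusted p = 7.6e-12). The 2 groups were separated by more than 10 points, and the far hexamer window of the gene shown above lies in the bin that fell. The terminal bin of Cpsf6 (chr10:117344673-117349038, minus strand) held 11.1%, 11.6% and 15.3% in control and 5.82%, 6.72% and 8.46% in EV libraries (usage log2 -0.89 ± 0.19, edgeR adjusted p = 0.00014). Its bin level did not pass (log2 -0.18, adjusted p = 0.43), while the rest of the gene rose (log2 0.80). For Cpsf6 the range of adjusted p over 13 other settings ran up to 0.057, with limma on log2 odds.

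Msi2, which encodes the Musashi RNA-binding protein, went from 31.7%, 39.1% and 38.8% in control A, B and C to 11.3%, 11.7% and 14.4% in EV A, B and C (usage log2 -1.55 ± 0.20, adjusted p = 3.4e-12). Its terminal bin fell (log2 -0.57) while its other bins rose (log2 1.43). Dusp11, a phosphatase of RNA 5' ends, had 46.6%, 46.1% and 46.0% in control and 22.8%, 22.6% and 26.5% in EV libraries (usage log2 -0.95 ± 0.18). Dicer1, which cuts microRNA precursors and was chosen after its values were seen, had 17.7%, 20.2% and 18.7% in control and 7.42%, 8.26% and 10.3% in EV libraries (usage log2 -1.10 ± 0.21). In each of these 3 genes the lowest control library was well above the highest EV library. Hnrnpd encodes AUF1, a binder of AU-rich elements. Its terminal bin held 1.15%, 1.24% and 1.29% of its counts in control and 0.271%, 0.233% and 0.426% in EV libraries (usage log2 -1.97 ± 0.28), a small part of the gene that rests on 30 to 256 counts a library.

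The other deep falls were in genes of varied roles. Zdhhc21, a palmitoyltransferase, had 48.7%, 54.0% and 50.9% in control A, B and C and 20.2%, 21.1% and 25.5% in EV A, B and C (usage log2 -1.19 ± 0.23), while its gene level was not called (log2 0.05, adjusted p = 0.77). Per base, its terminal bin of 5309 bases had 1.02, 1.12 and 1.18 times the counts of the adjoining bin in control and 0.291, 0.325 and 0.385 times in EV libraries. Hook3, which links dynein to its cargo, had 50.6%, 51.6% and 55.9% in control and 27.4%, 24.4% and 33.5% in EV libraries (usage log2 -0.88 ± 0.17), again with no call for the gene (log2 -0.04, adjusted p = 0.78). In both, the bin itself fell and the remaining bins rose. The share of Foxk1, a forkhead transcription factor, went from 64.8% ± 2.81 to 40.7% ± 1.07, and that of the zinc finger gene Zfp704 from 65.5% ± 3.43 to 36.6% ± 6.17 (SD, n = 3 each). Both were called with adjusted p of 0.015 and 0.018, and each call was lost in 3 of the 6 fits that left out 1 library: for Foxk1 without control C, EV A or EV C, and for Zfp704 without control C, EV A or EV B. Dnajc18, a co-chaperone gene, went from 51.7% ± 0.769 to 27.9% ± 4.17 (usage log2 -0.90 ± 0.16).

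**Figure D4:**
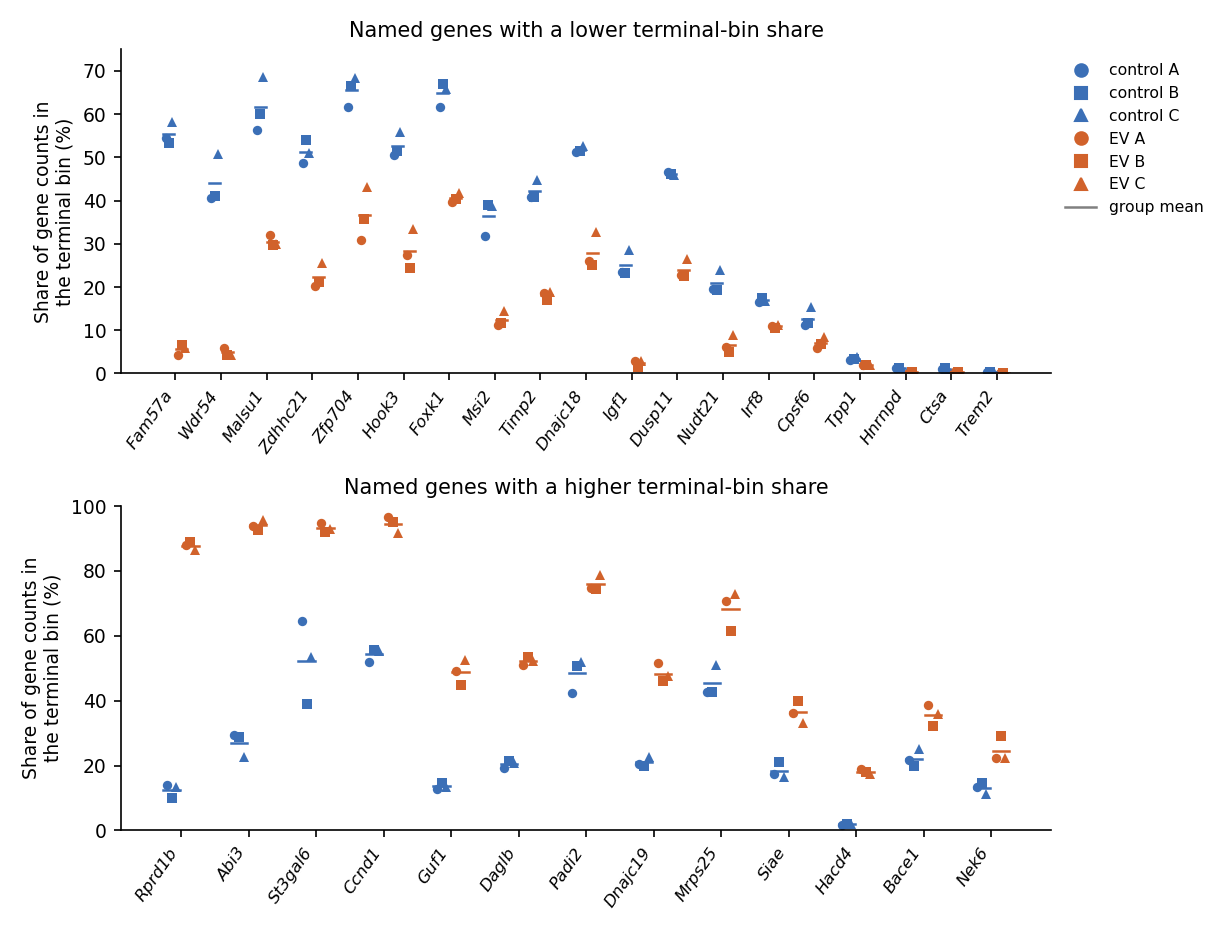
Share of gene counts in the terminal bin (%) of the named genes, for each library (points) and as group means (lines), ordered by the size of the difference. In the upper row the EV libraries lie below the control libraries in all 19 genes, and in the lower row they lie above them in all 13 genes.

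Lists of pathway genes were read in the same way. Of 23 cleavage and polyadenylation genes 7 had a long terminal bin, and the 7 shares were all lower in EV, with 2 calls, Nudt21 and Cpsf6. Over all long terminal bins 77.1% of the shares were lower and 15.5% of the bins tested were called lower, and lists of so few genes are given as counts only. Cstf1, a subunit of the cleavage stimulation factor, had 41.5%, 43.8% and 41.4% in control A, B and C and 31.4%, 34.0% and 30.2% in EV A, B and C, without overlap but with an adjusted p of 0.19. Of 6 genes for 3' UTR binding and decay, 1 fell (Hnrnpd) and 5 were not called, among them Elavl1, an RNA stabilizer, at 3.75% ± 0.209 in control and 5.599% ± 1.26 in EV libraries (adjusted p = 0.083). Of 10 genes known from textbooks for alternative polyadenylation, 9 were tested, of which Timp2, Nudt21 and Dicer1 fell and Ccnd1 rose, and the median difference was -2.99 points against -1.68 over all 2900 genes. Of 8 lysosome genes 3 fell, beside 15.5% of all long terminal bins tested. Scarb2, a lysosomal membrane receptor chosen after its values were seen, went from 26.9%, 28.4% and 28.5% to 18.7%, 16.4% and 18.7% (usage log2 -0.64 ± 0.17). The proteases Ctsa and Tpp1 fell in terminal bins that held little of the gene, from 1.09% to 0.234% and from 3.44% to 2.00%. Pltp, on the opposite strand over the Ctsa bin, fell from 369 to 110.1 CPM (log2 -1.75), and the Ctsa bin itself had a log2 of -1.80.

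Of 3 homeostatic microglia genes with a long terminal bin, 2 fell, again beside 15.5% of all tested. Trem2, a lipid receptor, went from 0.369%, 0.396% and 0.426% in control A, B and C to 0.0454%, 0.0127% and 0.0155% in EV A, B and C. The EV values rest on 2 to 6 counts, so they are close to the limit of detection (usage log2 -4.01 ± 0.47). Irf8, a transcription factor of microglia, had 16.6%, 17.4% and 16.9% in control and 10.995%, 10.5% and 11.2% in EV libraries (usage log2 -0.64 ± 0.21, adjusted p = 0.045). The groups of Irf8 did not overlap, but the call was lost in all 6 fits that left out 1 library and without the filter on low counts, with adjusted p up to 0.29. The joined entry of the gene model Gm20388, on the same strand over this bin, fell from 182 to 55.5 CPM (log2 -1.71), and the bin itself had a log2 of -0.83. Csf1r, the receptor for CSF1, had 0.510% and 0.568% and was not called.

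By edgeR the inflammatory genes tested were not called. Of 6 cytokine, chemokine and enzyme genes with a long terminal bin, 5 were tested and edgeR called 0, with 1 lower at an unadjusted p under 0.05 (Vegfa). Of all long terminal bins tested, 15.5% were called lower and 1.47% higher. With 5 and 9 genes in the 2 lists here, 0 calls do not show that calls were rarer in them. DESeq2 called 2 lower (Vegfa and Cxcl3), limma on log2 odds 1 (Cxcl3) and limma diffSplice 0. The Cxcl3 bin held 0% in control A, B and C and 0.0817%, 0% and 0.0143% in EV A, B and C. Its gene had 10 counts in the lowest library, so these calls do not show a fall in share. Of 9 NF-kB subunit and feedback genes edgeR called 0, also at an unadjusted p under 0.05, DESeq2 1 (Rel) and both limma tests 0. Ptgs2, the inducible cyclooxygenase, rose as a gene by a log2 of 10.65, and its terminal bin held 41.0%, 42.9% and 39.1% in control A, B and C and 42.4%, 42.0% and 42.3% in EV A, B and C. Il1a, a cytokine that rose by a log2 of 9.52, had 38.8% ± 3.48 and 39.0% ± 0.310. Socs3, a feedback inhibitor of cytokine signalling, had 71.6% and 72.7%, and Zc3h12a, an RNase of inflammatory mRNAs, 40.05% and 40.05%. These 4 shares overlapped between groups, and all 4 genes rose by a log2 of over 3. In the lowest library Ptgs2 had 606 counts, Il1a 985, Socs3 133 and Zc3h12a 1557. The SD of the Socs3 share was 4.72 points in control and 0.651 points in EV libraries. Overlap alone thus does not show that a share stayed the same. Vegfa, the vascular growth factor, had 16.0%, 20.1% and 19.9% in control and 14.01%, 13.3% and 14.04% in EV libraries, and the NF-kB subunit gene Rel had 69.7% ± 1.28 and 64.2% ± 1.22. Neither passed by edgeR (adjusted p = 0.40 and 1), although their groups did not overlap.

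Shares were lower whichever way the whole gene moved. At the gene level the background was 33.0% of entries rising and 33.5% falling, and of the 2900 genes 1172 rose and 990 fell. The median share difference was -1.82 points in genes that rose, -1.57 points in genes that fell and -1.65 points in the 738 genes not called. In the 234 genes that rose by a log2 of at least 2 the median share was 27.9% in control and 26.9% in EV libraries, and the libraries overlapped (exact permutation p = 0.4). In the 161 genes that fell by a log2 of at least 2 it was 25.6% and 24.3%, also with overlap (exact permutation p = 0.2). Shares were lower in EV for 66.2% of the first set and 64.0% of the second, against 77.1% of all 2900 genes. The Spearman correlation of the share difference with the gene's log2 fold change was -0.03 over the 2900 genes.

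Most of the bins whose usage rose lie under another gene. The strand setting of the counting is not given in the sources used here, and reads of overlapping genes on opposite strands cannot then be told apart. Another annotated gene lay over the terminal bin in 574 of the 2900 genes (19.8%), in 88 of the 434 that fell (20.3%) and in 31 of the 41 that rose (75.6%), always on the opposite strand in the last set. Without such genes 10 of 2250 tested bins rose and 346 fell. Where both genes could be tested, the log2 fold change of the other gene was above that of the host gene's remaining bins in 26 of 29 rises, in 11 of 79 falls and in 154 of 380 genes not called. The host's remaining bins enter both this difference and the usage value, so the match is in part built in. Their contribution to single bins was not tested.

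The largest rise was in Rprd1b, whose product binds the tail of RNA polymerase II. Its terminal bin (chr2:158131139-158132297, plus strand) held 13.96%, 10.1% and 13.3% of its counts in control A, B and C and 88.0%, 88.9% and 86.6% in EV A, B and C (usage log2 2.79 ± 0.28, adjusted p = 3.6e-20). The remaining bins of Rprd1b were not called (log2 -0.02, adjusted p = 0.90). The gene over the bin is Tgm2, a transglutaminase, which went from 35.7 ± 5.98 to 1677 ± 185 CPM (SD, n = 3 each). In Abi3, an actin regulator expressed in microglia, the share was 29.3%, 28.9% and 22.5% in control and 93.8%, 92.5% and 95.8% in EV libraries. The rest of Abi3 fell (log2 -2.63), while the joined entry of Zfp652 and Phospho1 over its bin rose from 60.0 to 189 CPM. In St3gal6, a sialyltransferase gene, the share was 64.6%, 39.0% and 53.3% in control and 94.8%, 92.0% and 92.9% in EV libraries, and Dcbld2 over its bin rose from 40.3 to 340 CPM. The call for St3gal6 was lost without control B or EV A.

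Daglb and Rac1 are convergent neighbours whose terminal bins lie over each other. Daglb encodes a diacylglycerol lipase and Rac1 a GTPase that controls the actin cytoskeleton. The Daglb bin (chr5:143503207-143505942, plus strand) went from 19.2%, 21.3% and 20.7% in control A, B and C to 51.0%, 53.3% and 52.3% in EV A, B and C, while the remaining Daglb bins fell (log2 -3.92). The Rac1 bin (chr5:143503634-143505481, minus strand), chosen after its values were seen, went from 11.3%, 9.71% and 11.4% to 0.865%, 0.875% and 0.937% (usage log2 -3.60 ± 0.29), while the remaining Rac1 bins were not called (log2 -0.07, adjusted p = 0.58). In this pair the share rose in the gene whose other bins fell, and it fell in the gene whose other bins were not called.

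Several other rises also lay under another gene. The terminal share of Ccnd1, the gene of cyclin D1, went from 54.3% ± 1.97 to 94.5% ± 2.59 as its remaining bins fell by 8.04 on the log2 scale. The terminal bin itself also fell, from 41.4 to 2.30 CPM (log2 -4.17), and LTO1 over it fell from 42.7 to 26.4 CPM. In EV libraries Ccnd1 had 289 to 308 counts, of which 265 to 298 were in the terminal bin, so its remaining bins were near the floor. The Ccnd1 call was lost without control A (adjusted p = 0.067). Guf1, a mitochondrial translation GTPase gene, went from 13.6% ± 0.859 to 48.9% ± 3.85 with Gnpda2 over its bin, and Dnajc19, a mitochondrial co-chaperone gene, from 21.1% ± 1.39 to 48.4% ± 2.85 with Fxr1 over it. Hacd4, a fatty acid elongation gene, went from 1.83% to 18.1% with Focad over its bin, and Siae, a sialic acid esterase gene, from 18.4% to 36.4% with Tbrg1. The remaining named rises were Padi2, a protein deiminase gene (48.4% to 75.9%), Mrps25, a mitochondrial ribosome gene (45.4% to 68.4%), Bace1, the beta-secretase gene (22.1% to 35.6%), and Nek6, a mitotic kinase gene (13.1% to 24.6%). These bins too lay under another gene. From control to EV libraries, Gm13031 over Padi2 went from 1.18 to 1.51 CPM and Nr2c2 over Mrps25 from 27.7 to 57.6 CPM. Rnf214 over Bace1 went from 28.3 to 39.1 CPM and Psmb7 over Nek6 from 70.9 to 135 CPM. Calls were lost without control A, and with the stricter filter, for Padi2, without control A, control B or EV A for Bace1, and without control A, control B, EV A or EV C for Mrps25. Nek6 kept its call in the 13 settings tried.

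**Figure D5:**
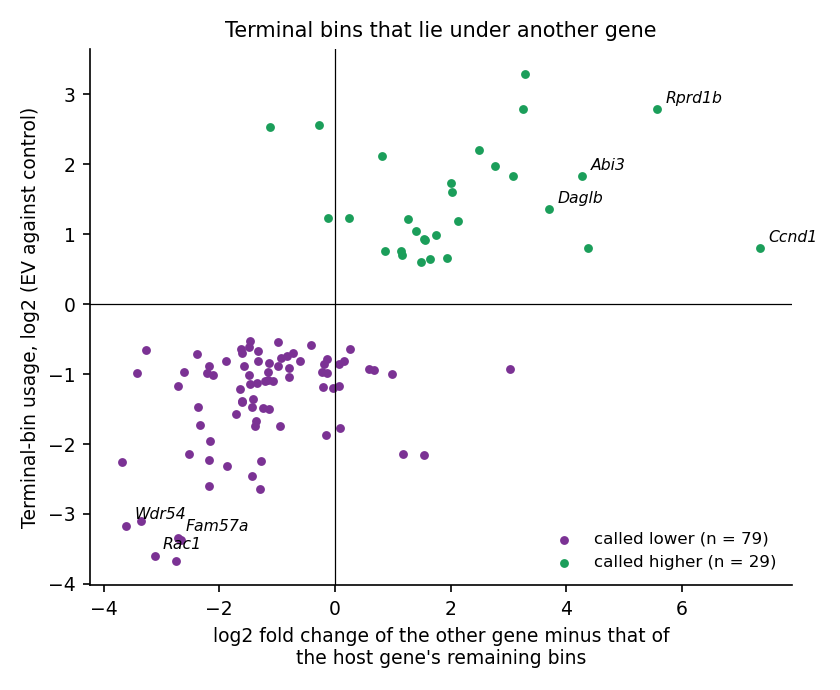
Terminal-bin usage (log2, EV against control, vertical) against the log2 fold change of the gene that lies over the bin minus that of the host gene's remaining bins (horizontal), for called genes where both could be tested. Of 29 rises 26 lie to the right of 0, and of 79 falls 68 lie to the left. The host's remaining bins enter both axes, so the match is in part built in.

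Some of the deepest falls also lay under another gene. The share of Fam57a went from 54.6%, 53.3% and 58.1% in control A, B and C to 4.20%, 6.57% and 5.89% in EV A, B and C (usage log2 -3.34 ± 0.32), its remaining bins rose (log2 1.79), and the joined entry of Glod4 and Gemin4 over its bin fell from 102 to 53.4 CPM. Wdr54, a WD-repeat gene, went from 44.2% ± 5.78 to 4.89% ± 0.963 under Rtkn, and Malsu1, a mitochondrial ribosome assembly gene, from 61.7% ± 6.27 to 30.5% ± 1.23 under Igf2bp3. Timp2, Igf1, Nudt21, Cpsf6, Msi2, Dusp11, Dicer1, Zdhhc21 and Foxk1 had no other annotated gene over the bin. Hook3 and Zfp704 lay under the gene models Gm45411 and C030034L19Rik, which were at 2.58 and 5.94 CPM in control and 1.28 and 1.94 CPM in EV libraries.

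Genes of the cleavage and polyadenylation list, which also holds poly(A)-binding protein genes, changed at the level of the whole gene. Of 23 tested, 11 rose and 5 fell, or 8 and 7 when libraries were scaled by totals alone, against a background of 33.0% and 33.5%. Pcf11, which promotes cleavage and termination, rose from 25.6 ± 2.32 to 71.8 ± 4.01 CPM (log2 1.49 ± 0.11, SE), and Pabpc4, a poly(A)-binding protein gene, from 68.8 ± 5.86 to 240 ± 16.2 CPM. Cstf2, whose product binds downstream of the cleavage site, rose from 15.2 to 53.0 CPM, as part of an entry joined with another gene. Rbbp6 and Pabpc1 rose by a log2 of 0.90 and 0.83. The endonuclease gene Cpsf3 fell from 54.8 ± 5.42 to 26.2 ± 0.690 CPM and its partner Cpsf1 from 94.7 ± 4.21 to 49.5 ± 4.13 CPM, and Cstf2t, Cpsf2 and the joined entry of Pabpn1 fell by 0.72, 0.38 and 0.37 on the log2 scale. Nudt21 was at 16.6 ± 0.243 and 20.1 ± 3.17 CPM and was not called (adjusted p = 0.083), whereas Cpsf6 rose from 43.0 ± 5.25 to 70.0 ± 2.18 CPM. Of 17 genes for 3' UTR binding and decay 6 rose and 4 fell, or 3 and 7 with totals alone, with the RNase gene Zc3h12a at a log2 of 3.83 and Zfp36, a destabilizer of AU-rich mRNAs, at 2.28.

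Genes at the edges of the rule had shares as varied as the rest. The shortest bins kept, of 1000 bases, were in Ube2w (0.1004% in control, 0.0942% in EV) and Ttc7b (17.2% and 16.4%), and Scly, with a bin of 999 bases, was left out (14.1% and 13.5%). By counts, Lyrm1 with 5000 counts (0.675% and 2.19%) and Zbtb37 with 5008 (41.2% and 27.4%) were kept, and Kif21a with 4989 (9.15% and 10.3%) and Gstcd with 4963 (8.76% and 3.39%) were left out.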

How the data were processed

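Libraries were made from Trizol-extracted RNA by polyA selection (NEBNext Ultra), as the labels' protocols say. The deposited values are raw counts per exon bin, and the submitters' processing notes list Trimmomatic 0.36, STAR, Subread and DESeq2 with GRCm38. Which annotation release was used, and whether reads were assigned by strand, is not given in the sources used here. The series table equalled the single-sample files in all 6 libraries.

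The members and gene lists were chosen with earlier results of these data known. "Last bin" was read as the last of all bins. Bins passing filterByExpr were fitted with edgeR 4.0.16 (glmQLFit, diffSpliceDGE, R 4.3.3), no covariate, with TMM factors from gene sums (control 1.09 to 1.16, EV 0.855 to 0.921). A usage SE is the one implied by its p. Gene, bin and remaining-bin levels used glmQLFTest. Adjustment was Benjamini-Hochberg over all features tested. CPM used TMM library sizes. Other genes over a bin, coding ends and sequences came from GENCODE vM21, and symbols were found for 2899 of 2900 genes. No replicates looked like one library deposited more than once (chi-square per degree of freedom of at least 82.4).

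Named genes had an adjusted p under 0.05, no overlap between groups, at least 500 counts in every library and a difference of at least 5 points: the 12 largest in each direction, plus, from each list, the called genes with the smallest adjusted p (at most 2 per direction, with no minimum of counts or of difference, so that Ccnd1 is named with 289 counts in its lowest library), and at most 5 cleavage genes per direction at the gene level. Unnamed gene models were passed over. Dicer1, Scarb2, Rac1 and the genes given as not called were chosen after their values were seen. On simulated counts over 196716 bins the usage test recovered 98% and 50% of bins lowered by a log2 of 2 and 1 (50 bins each), and 88% and 46% of those raised. It called 0 of 2459 unchanged terminal bins. The terminal bins used had over 50 expected counts a library. Bins were drawn independently and only the chosen bins differed between groups, so these rates need not hold for the real data, where many genes changed.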

Additional observations from a re-analysis of the deposited data

How the results depend on the processing

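The counts of 41 rises and 434 falls stayed within 1.5 times with RLE scaling, without the filter on low counts, with a stricter filter, with limma on log2 odds and among genes with at least 500 counts in every library. DESeq2, run on the terminal bin against the rest of the gene, gave 90 and 1010, and limma diffSplice 65 and 672. Fewer genes entered with at least 5000 counts in each group (25 rises), a length of at least 2000 (24 and 250), no other gene over the bin (10 rises) and, in addition, all coding transcripts ending in it (0 and 103). The last bin among those of at least 1000 bases gave 82 rises from 4780 tested. Leaving out 1 library gave 27 to 42 rises and 312 to 416 falls. The median share difference ranged from -3.08 to -2.27 points on leaving out 1 library, and was -0.24 with counts per base, a smaller scale by construction, and -4.27 with a length of at least 2000. With library totals alone 3 genes for 3' UTR binding rose and 7 fell. With the replicate letter as a replicate block the counts were 55 and 537, including 40 of the 41 rises and 430 of the 434 falls. Same-letter libraries correlated by -0.08, 0.07 and 0.13 in their deviations of terminal share, so the letters were not taken as pairs. No named gene changed direction in any of these settings. The settings on other genes over the bin and on 500 counts, and both scalings of the bin level, were chosen after seeing the data. Depth limits bins with few counts, as in Trem2 and Hnrnpd.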
